A study of Mus musculus with 10 samples.

Results

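The glycolysis and lactate export genes are 33 named mouse genes. The list runs from the glucose transporters Slc2a1 and Slc2a3 through the enzymes of glycolysis to the lactate transporters Slc16a1 and Slc16a3. It also holds subunits and kinases of pyruvate dehydrogenase. The 33 genes were picked by gene symbol in the deposited count table. All 33 symbols were found, in 34 of its 18603 rows, since Aldoa stands for 2 gene records. All 34 rows passed the filter on low counts and were among the 15883 genes tested.

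Messenger RNA was sequenced from 10 subcutaneous tumours grown in female Balb/c mice from the kidney cancer line RENCA, of mouse origin. The treated group received SLR14, a stem-loop triphosphate RNA that activates the cytosolic RNA sensor RIG-I, packed in lipid nanoparticles in 50 µL of PBS and injected into the tumour. The control group received PBS alone, so the RNA and its lipid carrier are compared together with vehicle. Mice were randomized at tumour volumes of 100 to 150 mm3, injected 3 times at intervals of 48 h and sampled 24 h after the last injection, with 5 mice in each group. Both groups share the cell line, the mouse strain, the sex and the injection schedule, and no genetic change beyond the cancer line itself is labelled. Each sample is 1 whole tumour, in which a single cancer line is mixed with host cells.

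Glycolysis splits glucose into pyruvate in the cytosol, and many tumours run it fast and export the product as lactate. Slc2a1 (Glut1) brings glucose in, hexokinases trap it, phosphofructokinase sets the pace, and pyruvate kinase makes pyruvate. Lactate dehydrogenase then turns pyruvate into lactate, which leaves through monocarboxylate transporters. Pyruvate can instead enter the mitochondrion, where pyruvate dehydrogenase uses it up. Pyruvate dehydrogenase kinases block that enzyme. Many of these genes are targets of the hypoxia-inducible factor HIF-1, which recognises a short DNA core, ACGTG or GCGTG.

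After SLR14, 0 of the 34 rows passed edgeR's quasi-likelihood test at a Benjamini-Hochberg adjusted p of 0.05, beside 0.963% of all genes tested (153 of 15883, with 0.674% higher and 0.29% lower). Hk3, the hexokinase of blood and myeloid cells, came nearest, going from 12.8 ± 2.46 to 20.9 ± 4.38 CPM (counts per 1000000 of the scaled library; SD, n = 5; edgeR adjusted p = 0.0861). The genes with the highest levels, among them Pkm, Gapdh, Tpi1, Aldoa and Ldha, differed by 1.02- to 1.23-fold between the groups in the fitted model. Among the 5 PBS tumours alone, the highest value of these genes was 1.69 (Aldoa) to 2.26 (Tpi1) times the lowest. That range was wider for Slc2a1 (4.08-fold) and Hk2 (4.59-fold). In a whole tumour, a change in the number of cells of a type and a change in RNA per cell cannot be told apart.

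The promoters of 4 members are shown before their values. Chosen after the values were seen, Slc2a1, Pgk1 and Ldha are printed for glucose uptake, ATP formation and lactate formation, and Ldhb because it is the isozyme of Ldha with a very low level. Each window holds the 250 bases before and 50 bases after a transcript start, 5′ to 3′ on the gene's strand, from RefSeq on build GRCm38.p6, and capitals mark both cores of the HIF-1 site, ACGTG and GCGTG, or their reverse complements CACGT and CACGC.
Slc2a1, chr4:119108495-119108794, plus strand: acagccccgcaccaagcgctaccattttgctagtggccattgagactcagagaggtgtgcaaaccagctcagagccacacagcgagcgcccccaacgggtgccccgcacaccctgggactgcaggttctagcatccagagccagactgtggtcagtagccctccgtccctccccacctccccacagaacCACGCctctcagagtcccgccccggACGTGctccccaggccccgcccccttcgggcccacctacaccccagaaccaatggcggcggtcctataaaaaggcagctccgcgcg
Pgk1, chrX:106186850-106187149, plus strand: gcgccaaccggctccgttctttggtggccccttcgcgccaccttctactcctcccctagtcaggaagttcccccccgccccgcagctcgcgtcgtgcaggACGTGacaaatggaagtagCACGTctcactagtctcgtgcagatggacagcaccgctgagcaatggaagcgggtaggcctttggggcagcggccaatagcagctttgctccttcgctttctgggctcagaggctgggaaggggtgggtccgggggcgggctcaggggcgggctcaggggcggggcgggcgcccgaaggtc
Ldha, chr7:46845554-46845853, plus strand: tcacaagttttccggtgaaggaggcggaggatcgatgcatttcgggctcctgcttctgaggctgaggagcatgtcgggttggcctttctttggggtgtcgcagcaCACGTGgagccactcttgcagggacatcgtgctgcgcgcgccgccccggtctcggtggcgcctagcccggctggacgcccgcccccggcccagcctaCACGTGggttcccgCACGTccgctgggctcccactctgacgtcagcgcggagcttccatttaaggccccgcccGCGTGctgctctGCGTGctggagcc
Ldhb, chr6:142507908-142508207, minus strand: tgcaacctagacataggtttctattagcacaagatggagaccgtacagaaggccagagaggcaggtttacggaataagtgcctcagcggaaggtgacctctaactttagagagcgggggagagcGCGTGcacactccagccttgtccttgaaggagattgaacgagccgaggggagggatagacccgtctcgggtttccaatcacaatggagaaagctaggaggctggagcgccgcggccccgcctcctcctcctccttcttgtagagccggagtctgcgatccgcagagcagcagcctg

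The Slc2a1 window holds ACGTG once, starting 36 bases before the transcript start, and the Pgk1 window holds it at 2 places, 150 and 131 bases before it. In the Ldha window 5 matches to ACGTG lie at 3 places, since CACGTG reads as a match on both strands at 2 of them. CACGTG is also the E-box bound by Myc and related factors, so the motifs overlap. GCGTG stands once in the Slc2a1 window, at 2 places in the Ldha window, at none in the Pgk1 window and once in the Ldhb window. The Ldhb window holds no ACGTG, and neither does the window of a further Ldha start, which holds GCGTG at 2 places. RefSeq windows were found for 32 of the 33 symbols, 51 windows in all. Of these, 23 windows (45.1%) held ACGTG on either strand, and 19 of 32 genes (59.4%) held it in at least 1 window. Among all 32851 windows of the same length 19.6% held it, and among all genes 21.8% did. GCGTG stood in 28 of the 51 windows (54.9%) and in 32.4% of all windows, and either core in 39 (76.5%) and in 43.8% of all windows. Windows of the same gene can overlap, so a site can be counted more than once, as for Aldoa. The shares over all windows and all genes were not matched for windows per gene or base composition. The search for GCGTG was added after the values were seen. These letters describe the sequence and are not evidence of binding.

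Levels between genes were compared as CPM per kilobase of transcript. Pkm, pyruvate kinase, was the highest member at 1585 ± 379 in PBS and 1847 ± 356 in SLR14 tumours (CPM per kilobase; SD, n = 5). It was followed by Gapdh at 1441 ± 389 and 1772 ± 320, Aldoa at 1071 ± 207 and 1226 ± 243, and Tpi1 at 1006 ± 267 and 1029 ± 254. Ldha stood at 856 ± 222 and 912 ± 229, Eno1 at 479 ± 134 and 611 ± 145, and Pgk1 at 466 ± 126 and 487 ± 111. Neighbours in this order differed by less than their 2 SDs added, except that Ldha stood above Eno1 by more in the PBS tumours. Gene counts do not separate the M1 and M2 splice forms of Pkm.

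Most steps were served by 1 dominant isozyme. Ldha was 177- to 2184-fold above Ldhb per length over the 10 tumours, so the lactate dehydrogenase message was almost wholly the A subunit, which favours pyruvate to lactate. Slc2a3 (Glut3) stood at 0.00442 to 0.0168 times the level of Slc2a1, and Slc16a3 (MCT4) at 0.0265 to 0.0791 times the level of Slc16a1 (MCT1). Eno2, the neuronal enolase, was at 0.0357 to 0.0794 times the level of Eno1. Eno3 was at 40.5 ± 12.7 and 29.1 ± 5.17 CPM per kilobase in PBS and SLR14 tumours, beside 479 ± 134 and 611 ± 145 for Eno1. Other steps were shared. Hk2 was at 0.363 to 0.618 times the level of Hk1, and Pfkp at 0.941 to 1.46 times that of Pfkl. Pfkm, the phosphofructokinase of muscle, was at 54.2 ± 9.32 and 60.6 ± 1.54 CPM per kilobase beside 104 ± 27.1 and 109.9 ± 26.4 for Pfkp.

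**Figure D1:**
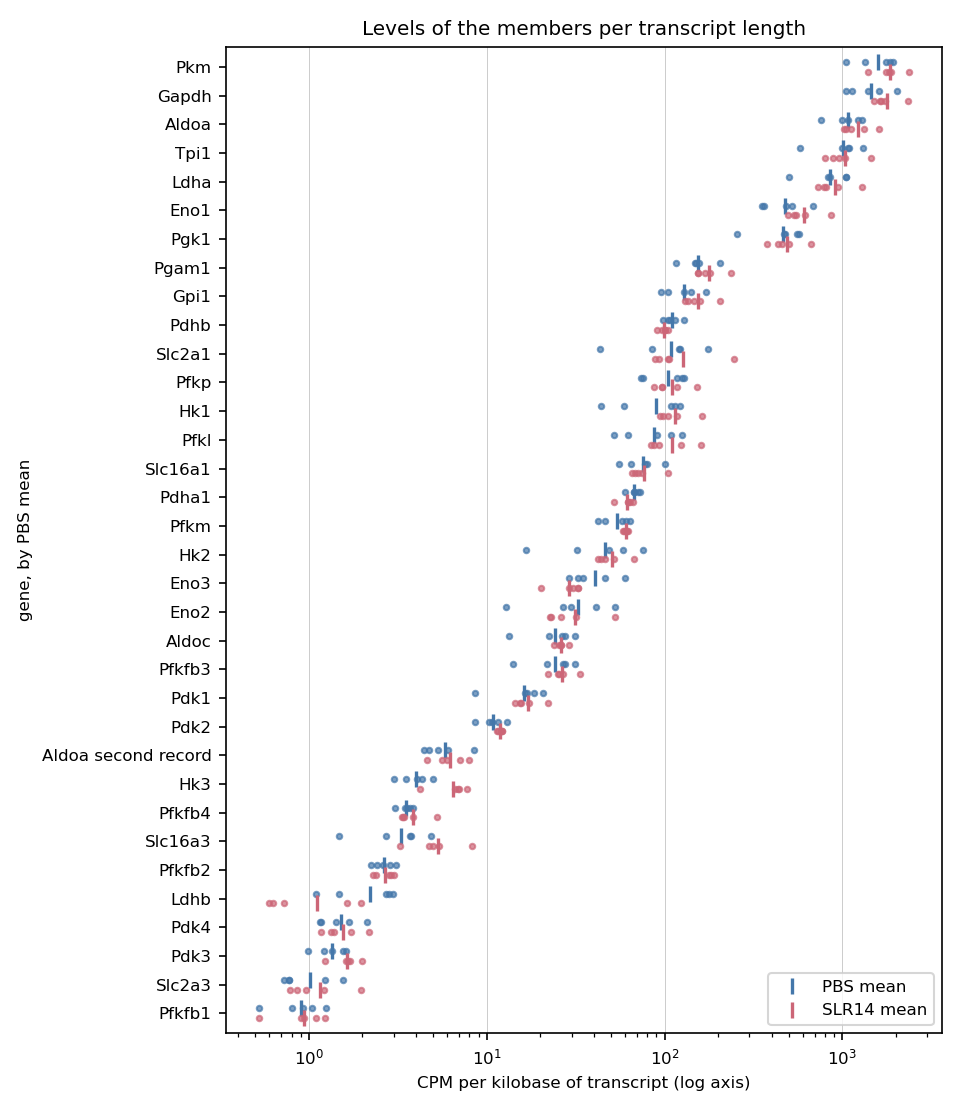
Level of each member per transcript length, on a log axis in CPM per kilobase, with a point for each of 5 PBS (blue) and 5 SLR14 (red) tumours and a tick at each group mean. Genes run from Pkm at 1585 in PBS down to Pfkfb1 at 0.908, and the points of both groups overlap for every gene.

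Single tumours stood out across many members at once. Tumour SLR14 2 had the highest value of its group for 23 of 34 rows (67.6%), where it was the highest for 25.3% of all genes tested. Tumour PBS 4 was the highest of its group for 19 rows (55.9%, all genes 18.7%), and tumour PBS 3 the lowest for 17 (50.0%, all genes 16.9%). Tumour SLR14 5 was the lowest of the SLR14 group for 14 rows (41.2%, all genes 22.1%). The median SD of log2(CPM + 1) within groups was 0.338 over the members and 0.209 over all genes tested. Members of 1 tumour share a library, so these counts are not independent observations.

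Tumour PBS 5 had members at both ends of the PBS range. It was the highest PBS tumour for 6 of 34 rows (17.6%, all genes 34.7%) and the lowest for 8 (23.5%, all genes 34.0%). At either end the share of members was below that of all genes. PBS 5 had the lowest PBS values of Hk1 (169 CPM) and Hk2 (91.2 CPM), enzymes that trap glucose, and of Eno1 (717 CPM) and Pfkfb3 (65.0 CPM). In the same tumour Pgk1 (1047 CPM) and Ldha (1849.7 CPM) were the highest of the PBS group, and Aldoa (1848 CPM) and Tpi1 (1724 CPM) lay within the range of the others. Tumour PBS 3 was low for the glucose transporters and most enzymes, with Slc2a1 at 141, Pgk1 at 467 and Ldha at 887 CPM. It was not low for Eno3 and Ldhb. For 5 rows (14.7%, all genes 18.7%) PBS 3 was the highest PBS tumour, namely Pdk2, Pdk3, Pdk4, Pfkfb2 and Pfkfb4.

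**Figure D2:**
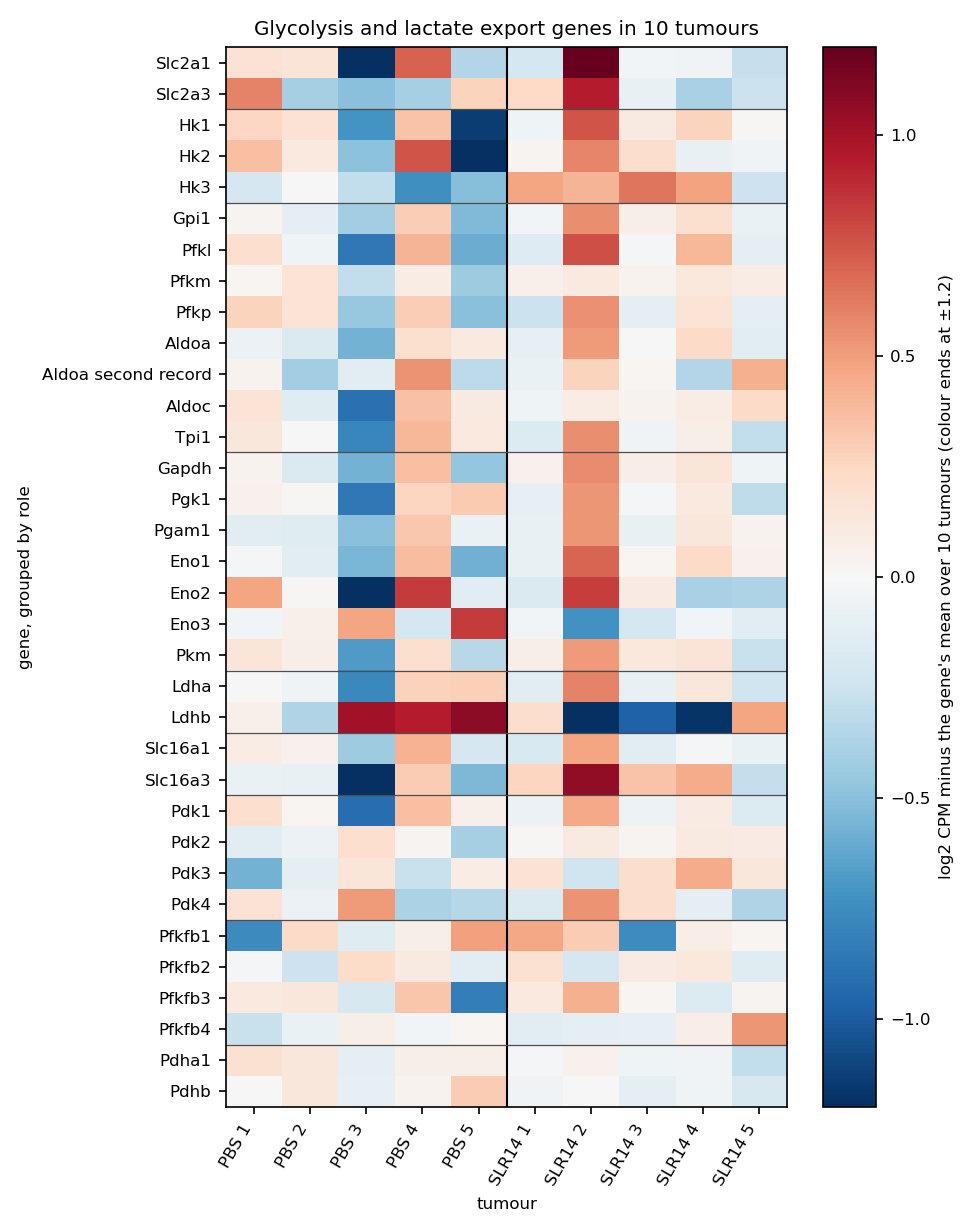
Deviation of log2 CPM of each member from its own mean over 10 tumours, with tumours in columns, genes in rows grouped by role and the colour ends at ±1.2. Column SLR14 2 is red and column PBS 3 blue for most rows, column PBS 5 is blue for the hexokinases but not for Pgk1 and Ldha, and Ldhb and Eno3 are red in PBS 3 and blue in SLR14 2.

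Hypoxia response genes outside glycolysis showed the same tumours at the ends. Of 19 tested, SLR14 2 was the highest SLR14 tumour for 17 (89.5%, all genes 25.3%). PBS 4 was the highest PBS tumour for 14 (73.7%, all genes 18.7%) and PBS 3 the lowest for 14 (73.7%, all genes 16.9%). SLR14 5 was the lowest SLR14 tumour for 10 (52.6%, all genes 22.1%). Examples were chosen after their values were seen. Bnip3, a mitophagy receptor, was at 390.5, 327, 111, 472 and 444 CPM in PBS tumours 1 to 5 and at 281, 609, 285, 287 and 236 CPM in SLR14 tumours 1 to 5. Adm, the vasodilator adrenomedullin, had its lowest value in PBS 3 (7.73 CPM) and its highest in SLR14 2 (72.9 CPM). Ero1a, an oxidase of the endoplasmic reticulum, reached 2509.7 CPM and Ndrg1 6666 CPM in SLR14 2, against 584 and 2252 CPM in PBS 3. Vegfa, the vascular growth factor, ranged from 171 to 312 CPM in PBS and from 238 to 309 CPM in SLR14 tumours. Car9, a carbonic anhydrase widely used as a hypoxia marker, stayed between 0.558 and 1.49 CPM in all 10 tumours. Hif1a itself ranged from 335 to 461 CPM in PBS and from 378 to 447 CPM in SLR14 tumours (edgeR adjusted p = 0.982).

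The tumours at the ends also differed in other cells. Summed skeletal muscle markers (16 of 16 measured) ran from 51.0 to 298 CPM in the PBS group against 9.41 to 287 CPM after SLR14. SLR14 2 was the lowest, with Acta1, Myh1, Myh2, Myh4, Tnnt3, Mb and Pvalb at 0. Fibroblast markers (10 of 10) summed to 859 to 3417 CPM in PBS and 476 to 1566 CPM in SLR14 tumours, again lowest in SLR14 2, and PBS 5 was the lowest and PBS 4 the highest PBS tumour. Keratinocyte markers (3 of 9) summed to 54.4 CPM in PBS 4 and 99.3 CPM in SLR14 5, against 2.3 to 5.66 CPM in the other tumours. Epithelial and renal markers (13 of 14) summed to 4699.8 to 5923 CPM in PBS and 5087 to 6769 CPM in SLR14 tumours. SLR14 2 had the highest of these sums, with 3494 CPM from Vim, a gene that mesenchymal cells also express. Without Vim the sums ran from 2683 to 3243 CPM in PBS and from 2752 to 3340.1 CPM in SLR14 tumours, highest in SLR14 5. Within the list Epcam, an epithelial adhesion molecule, fell, with every SLR14 tumour below the PBS range of 2.09 to 6.11 CPM (log2 fold change -2.42, edgeR adjusted p = 0.0324). Cdh16, the kidney cadherin, had a log2 fold change of -0.52 (edgeR adjusted p = 0.0788). The other markers of the list went both ways, from -0.34 (Cdh2) to 0.73 (Krt19), and none passed (edgeR adjusted p of 0.57 or more). Pax8, a kidney lineage factor, was measured in every tumour, at 64.2 CPM in PBS 5 and at 89.4 to 113 CPM in the others. Red blood cell markers (7 of 10) were at 54.5 to 173 CPM in PBS, highest in PBS 5, and at 21.0 to 98.5 CPM in SLR14 tumours. The share of counts from mitochondrial genes was lowest in PBS 5 (0.2444%) and PBS 3 (0.3606%) and highest in SLR14 2 (0.7622%). The part of these cells, or of the mitochondrial share, in the spread of glycolysis genes was not tested. Total counts per tumour ran from 17931895 in SLR14 2 to 39842608 in SLR14 3.

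Fold changes of the members leaned upward, but how many did so depended on single tumours and on the scaling. With all tumours, 29 of 34 rows had a positive log2 fold change (all genes 48.0%), with a median of 0.13 beside -0.01 over all genes tested. Without SLR14 2, 18 rows were positive and the median was 0.05. PBS 5 was at an end of its group for more genes than any other PBS tumour (highest for 34.7% and lowest for 34.0% of all genes), as was SLR14 2 among SLR14 tumours (25.3% and 25.0%). Without both, 19 rows were positive, the median was 0.01 and 0 rows passed (all genes 1.33%). Without PBS 3, 21 rows were positive and the median was 0.09. Without PBS 5 alone, 23 rows were positive and the median was 0.14. With upper-quartile factors and all tumours, 24 rows were positive, with a median of 0.1 beside -0.05 over all genes.

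**Figure D3:**
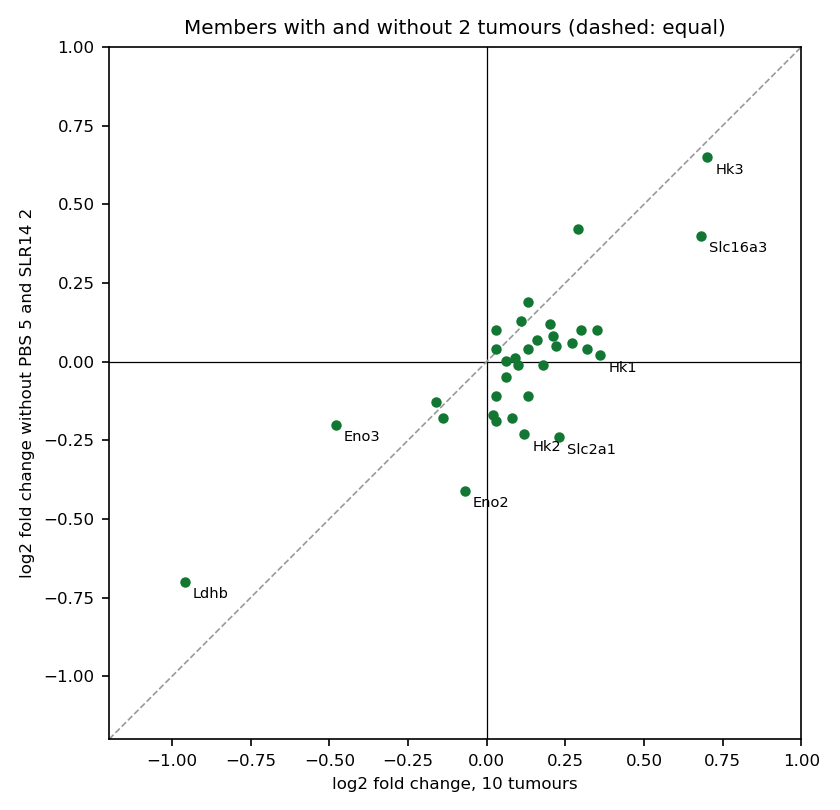
Log2 fold change of each member over all 10 tumours (x axis) and without tumours PBS 5 and SLR14 2 (y axis), where the dashed line marks equal values. Most points lie below the line, Slc2a1 goes from 0.23 to -0.24, and Hk3 goes from 0.70 to 0.65.

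Unadjusted p-values under 0.05 were found for 4 of 34 rows, where 10.8% of all genes had one. They belong to Hk3, Slc16a3, Eno3 and Ldhb. For 31 rows the 95% interval of the log2 fold change lay within a doubling either way (84.6% of all genes). The exceptions were Hk3, Slc16a3 and Ldhb. The groups overlapped for every row, so 0 of 34 were separate (3.24% of all genes). DESeq2 called 1 row, Hk3, among 407 genes in all, and limma voom called 0 among 145.

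**Figure D4:**
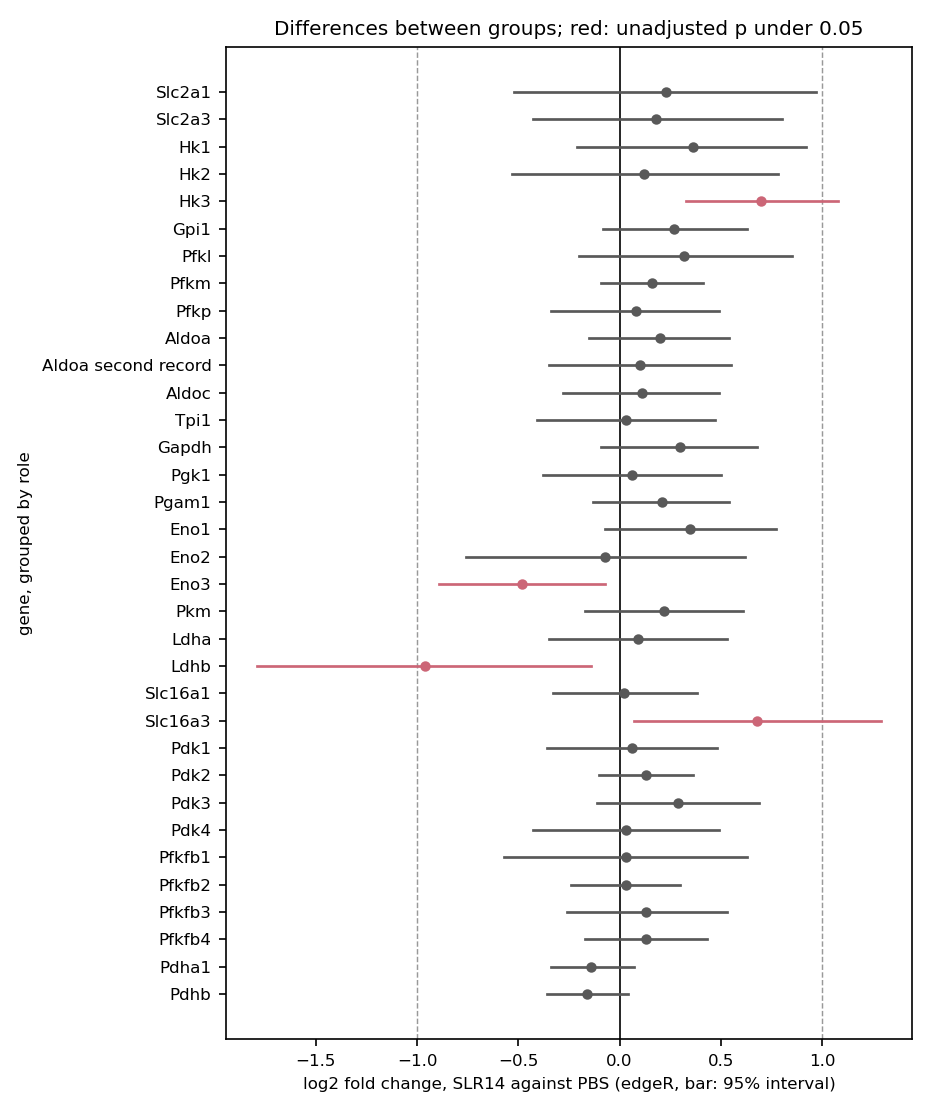
Log2 fold change of SLR14 against PBS tumours for each member (points) with its 95% interval (bars), from edgeR, where dashed lines mark a doubling and a halving. Of 34 intervals 31 lie between those lines, and the 4 members in red have an unadjusted p under 0.05.

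RNA of the glucose uptake genes did not separate the groups. Slc2a1 (ENSMUSG00000028645) was at 397, 391, 141, 574 and 276 CPM in PBS tumours 1 to 5 and at 304, 804, 344, 342 and 289.6 CPM in SLR14 tumours 1 to 5. SLR14 2 alone lay above the PBS range, and the other SLR14 tumours lay inside it. The log2 fold change was 0.23 (95% interval -0.52 to 0.97, edgeR adjusted p = 0.807), and it turned to -0.15 without SLR14 2. Slc2a3, a high-affinity transporter of neurons and leukocytes, was at 4.01 ± 1.44 and 4.58 ± 1.91 CPM (SD, n = 5).

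Among the hexokinases, Hk3 (ENSMUSG00000025877) was at 14.0, 16.0, 13.1, 9.64 and 11.3 CPM in PBS and at 22.3, 21.3, 25.1, 22.4 and 13.5 CPM in SLR14 tumours. SLR14 1 to 4 lay above every PBS tumour and SLR14 5 lay among them. The log2 fold change was 0.70 (SE 0.17, 95% interval 0.33 to 1.08, edgeR adjusted p = 0.0861). Hk3 passed without SLR14 5 (log2 fold change 0.83, edgeR adjusted p = 0.0194) and in DESeq2 (adjusted p = 0.00917). In the other alternatives its adjusted p lay between 0.0737 and 0.244. Summed neutrophil markers (11 of 14) ran from 14.4 to 23.2 CPM in the PBS group against 27.0 to 63.9 CPM after SLR14. Ngp was at 0 in all PBS tumours and at 0.107 to 0.406 CPM after SLR14. Of the list, S100a8, S100a9 and Mmp8 passed (edgeR adjusted p = 0.0127, 0.0295 and 0.0138). Cxcr2, Mmp9, Csf3r and Cd177 overlapped between groups and did not pass (edgeR adjusted p = 0.111, 0.464, 0.562 and 0.181). The others, Ngp included, had too few counts to be tested. Macrophage and monocyte markers (13 of 13) overlapped, at 1963 to 2442 and 1938 to 2350 CPM. SLR14 3, with the most Hk3, had the fewest neutrophil markers of its group, and the part of these cells in the Hk3 difference was not tested.

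The ubiquitous Hk1 was at 442, 421, 227, 473 and 169 CPM in PBS and at 361, 628, 401, 450 and 377 CPM in SLR14 tumours. PBS 3 and PBS 5 were low, and the other PBS tumours lay inside the SLR14 range (log2 fold change 0.36, edgeR adjusted p = 0.630). Hk2, the inducible hexokinase of muscle and many tumours, was at 320, 269, 177, 418 and 91.2 CPM in the PBS tumours against 254, 373, 288, 234 and 241 CPM after SLR14. The PBS tumours spanned the whole SLR14 range.

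**Figure D5:**
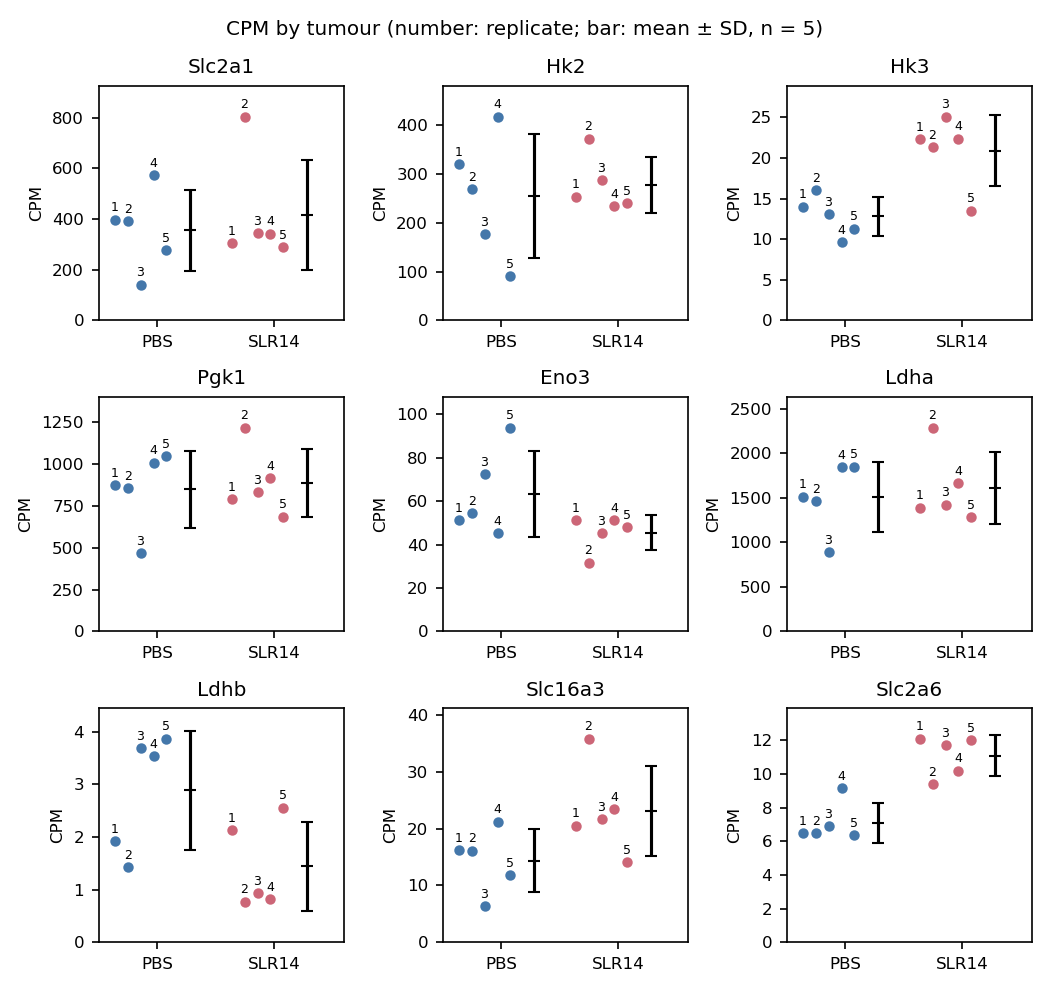
CPM of 8 members and of Slc2a6 in each tumour, with points numbered by replicate and a bar for the group mean ± SD (n = 5). SLR14 2 stands above the rest for Slc2a1, Pgk1, Ldha and Slc16a3, while Slc2a6 is the only gene shown whose groups do not overlap, with PBS tumours up to 9.16 and SLR14 tumours from 9.40 CPM.

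In the middle steps, from glucose phosphate to the 3-carbon sugars, all 8 rows had positive fold changes between 0.03 and 0.32 on the log2 scale and none had an unadjusted p under 0.05. Gpi1, which turns glucose phosphate into fructose phosphate, was at 409, 372, 300.2, 491 and 277 CPM in PBS and at 392, 589, 420.2, 458 and 378 CPM in SLR14 tumours. The groups overlapped (log2 fold change 0.27, 95% interval -0.08 to 0.63, edgeR adjusted p = 0.576). Aldoa (ENSMUSG00000030695), which cleaves the sugar, was at 1624, 1513, 1153, 1952 and 1848 CPM in PBS and at 1592, 2430, 1695, 1997 and 1550.1 CPM in SLR14 tumours. Again PBS 3 was lowest and SLR14 2 highest. The other record named Aldoa (ENSMUSG00000114515) is a separate gene identifier at 4.31 ± 1.21 and 4.62 ± 0.954 CPM, and reads could have been shared between the records.

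Of the phosphofructokinase subunits, Pfkl was at 328 ± 115 and 410.5 ± 122 CPM, Pfkp at 432 ± 112 and 456 ± 109 CPM, and Pfkm at 156 ± 26.8 and 174 ± 4.42 CPM in PBS and SLR14 tumours. Aldoc, the aldolase of brain, was at 67.7 ± 19.4 and 72.8 ± 5.18 CPM. Tpi1, which interconverts the 3-carbon sugars, was at 1617 ± 429 and 1653 ± 409 CPM. All of these differences were smaller than the SD within the PBS group.

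The Pfkfb enzymes make and remove fructose 2,6-bisphosphate, the activator of phosphofructokinase. Pfkfb3, the form with the strongest kinase activity, led with 125, 127, 101, 145 and 65.0 CPM in the PBS tumours against 125, 155, 117, 103 and 118 CPM after SLR14. Pfkfb4 was at 10.6, 12.1, 13.4, 12.5 and 13.0 CPM in PBS and at 11.7, 11.8, 11.9, 13.5 and 18.4 CPM in SLR14 tumours. SLR14 5 stood alone at the top for Pfkfb4, and both genes overlapped between groups (edgeR adjusted p = 0.789 and 0.730). Pfkfb2 was at 11.7 ± 1.5 and 11.9 ± 1.38 CPM, and Pfkfb1, the liver form, at 1.58 ± 0.471 and 1.63 ± 0.460 CPM.

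In the lower steps, from glyceraldehyde phosphate to pyruvate, Eno3 went against its neighbours. Eno3 (ENSMUSG00000060600), the enolase of muscle, was at 51.1, 54.5, 72.5, 45.2 and 93.9 CPM in PBS and at 51.1, 31.7, 45.3, 51.3 and 48.0 CPM in SLR14 tumours. PBS 5 and PBS 3 were high, SLR14 2 was low, and the rest overlapped. The log2 fold change was -0.48 (95% interval -0.89 to -0.07, edgeR adjusted p = 0.387), and it was -0.20 without PBS 5 and SLR14 2. Muscle marker sums were at 298 CPM in PBS 3, 257 CPM in PBS 5 and 9.41 CPM in SLR14 2. Elsewhere they did not follow Eno3, with sums of 51.0 CPM in PBS 1, 219.8 CPM in SLR14 1 and 287 CPM in SLR14 4. In those tumours Eno3 was at 51.1, 51.1 and 51.3 CPM beside these sums. Their part in the Eno3 difference was not tested.

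Pkm was at 4511, 4294, 2544, 4679 and 3241 CPM in PBS and at 4272, 5800, 4453, 4551 and 3383 CPM in SLR14 tumours. The SLR14 tumours other than SLR14 2 lay inside the PBS range (log2 fold change 0.22, edgeR adjusted p = 0.662). Gapdh, often used as a reference gene, was at 2047 ± 552 and 2516 ± 454 CPM, and Pgk1, which makes the first ATP of the pathway, at 850.1 ± 230 and 888 ± 202 CPM. Pgam1 was at 275 ± 57.5 and 317 ± 60.5 CPM, Eno1 at 970.3 ± 272 and 1239 ± 294 CPM, and Eno2 at 91.6 ± 42.4 and 87.2 ± 35.1 CPM. Of these, Eno1 had the largest fold change (0.35, edgeR adjusted p = 0.538).

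At the lactate step, Ldha (ENSMUSG00000063229) was at 1515, 1461, 887, 1843 and 1849.7 CPM in PBS and at 1388, 2289, 1425, 1665 and 1284 CPM in SLR14 tumours. The groups shared most of their range, and the log2 fold change was 0.09 (95% interval -0.35 to 0.53, edgeR adjusted p = 0.874). Ldhb (ENSMUSG00000030246), the subunit of heart and oxidative cells, was at 1.92, 1.43, 3.69, 3.53 and 3.87 CPM in PBS and at 2.13, 0.774, 0.939, 0.815 and 2.56 CPM in SLR14 tumours. SLR14 2, 3 and 4 lay below every PBS tumour, and SLR14 1 and 5 lay among them. The log2 fold change was -0.96 (95% interval -1.79 to -0.14, unadjusted p = 0.0259, edgeR adjusted p = 0.384). The interval is the widest of the members.

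For export, Slc16a1 was at 352, 345, 247, 444 and 288 CPM in PBS and at 292, 462, 302, 329 and 315 CPM in SLR14 tumours (log2 fold change 0.02, 95% interval -0.33 to 0.38, edgeR adjusted p = 0.969). Slc16a3 (ENSMUSG00000025161), the exporter of strongly glycolytic cells and of activated myeloid cells, was at 16.2, 16.1, 6.41, 21.2 and 11.8 CPM in PBS and at 20.5, 35.8, 21.7, 23.4 and 14.1 CPM in SLR14 tumours. SLR14 2, 3 and 4 lay above every PBS tumour. Its log2 fold change was 0.68 (95% interval 0.07 to 1.29, unadjusted p = 0.0323, edgeR adjusted p = 0.418), and it was 0.40 without PBS 5 and SLR14 2.

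At the pyruvate dehydrogenase step, both subunits among the members had small negative fold changes. Pdha1 was at 208, 201, 169.7, 193 and 193 CPM in PBS and at 182, 190.4, 177, 178 and 149 CPM in SLR14 tumours (log2 fold change -0.14, edgeR adjusted p = 0.612). Pdhb was at 158, 174, 148, 163 and 195 CPM in PBS and at 153, 159, 147, 152 and 138 CPM in SLR14 tumours (-0.16, 95% interval -0.36 to 0.04, edgeR adjusted p = 0.555). They were among the steadiest members, with a 1.22-fold range of Pdha1 and a 1.31-fold range of Pdhb over the PBS tumours.

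Among the pyruvate dehydrogenase kinases, Pdk1, a hypoxia-inducible form, was at 96.2, 85.5, 44.5, 108 and 87.4 CPM in PBS and at 79.9, 115, 80.6, 89.6 and 75.0 CPM in SLR14 tumours. It had the low PBS 3 and high SLR14 2 of the glycolytic enzymes (edgeR adjusted p = 0.920). Pdk3 was at 2.09, 2.86, 3.43, 2.57 and 3.29 CPM in PBS and at 3.49, 2.62, 3.58, 4.23 and 3.41 CPM in SLR14 tumours (log2 fold change 0.29, edgeR adjusted p = 0.596). Pdk2 was at 24.4 ± 3.64 and 26.7 ± 0.854 CPM, and Pdk4, the form raised by fasting, at 5.28 ± 1.42 and 5.42 ± 1.39 CPM.

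Ratios between partner genes within a tumour, which do not depend on library scaling, were compared for 8 pairs by two-sided exact permutation tests over all assignments of tumours to groups, which can give no p below 0.00794. After Benjamini-Hochberg adjustment over the 8 pairs 0 passed, and 2 had an unadjusted exact p under 0.05. The log2 ratio of Slc16a3 to Slc16a1 had a mean of -4.63 ± 0.37 with PBS against -3.92 ± 0.32 with SLR14 (SD over 5 tumours; exact permutation p = 0.0317, adjusted 0.127). All SLR14 tumours except SLR14 5, at -4.49, were above every PBS tumour. The log2 ratio of Pfkp to Pfkl was 0.43 ± 0.19 and 0.17 ± 0.10 (exact permutation p = 0.0317, adjusted 0.127). Ldha to Ldhb was at 9.09 ± 0.80 and 10.28 ± 1.09 (exact permutation p = 0.0952, adjusted 0.254). The ratios Hk2 to Hk1 and Eno2 to Eno1 differed by -0.16 and -0.37 (exact permutation p = 0.294 and 0.19). Slc2a3 to Slc2a1, Pdk1 to Pdk4 and Pfkfb3 to Pfkfb4 differed by -0.07, 0.06 and 0.06 (exact permutation p = 0.873, 0.921 and 0.841).

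In the rest of glucose metabolism, 1 of 81 tested genes passed, a share near the 0.963% of all genes. Slc2a6 (Glut6), a lysosomal member of the glucose transporter family found in activated macrophages, was at 6.48, 6.47, 6.90, 9.16 and 6.35 CPM in PBS and at 12.1, 9.40, 11.7, 10.2 and 12.0 CPM in SLR14 tumours. The groups did not overlap, as for 3.24% of all genes. Slc2a6 rose, with a mean of 7.07 ± 1.18 CPM under PBS against 11.1 ± 1.22 CPM under SLR14 (0.65 ± 0.14 SE as a log2 fold change; edgeR adjusted p = 0.0421). The call held without PBS 5 and SLR14 2 together (adjusted p = 0.038). Leaving out any 1 tumour other than PBS 4 or SLR14 2 lost it, with edgeR adjusted p-values of 0.0551 to 0.139, and so did upper-quartile factors (0.0536) and the replicate block (0.151). The log2 fold change stayed between 0.61 and 0.77 with any 1 tumour left out. Neutrophil marker sums did not overlap between groups either and macrophage sums did, at the values given beside Hk3, and their part in the Slc2a6 difference was not tested.

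Of 9 other glucose and lactate transporters tested, Slc2a6 included, 1 rose and 0 fell. Of 12 further isozymes and side steps 0 passed, and the smallest p was that of Galm, the galactose mutarotase, at 29.3 ± 3.01 and 24.4 ± 1.91 CPM (edgeR adjusted p = 0.335). None of 16 gluconeogenesis and glycogen genes passed, with Ugp2, which makes UDP-glucose, at 127 ± 20.4 and 111 ± 10.2 CPM. In the pentose phosphate pathway 0 of 10 passed, and H6pd, its enzyme in the endoplasmic reticulum, was at 555 ± 53.8 and 653 ± 39.6 CPM (edgeR adjusted p = 0.417). The pyruvate carrier and the other pyruvate dehydrogenase genes gave 0 of 8, with Dld, the shared E3 subunit, at 158 ± 34.0 and 136 ± 9.53 CPM. For the hypoxia-inducible factor pathway 0 of 8 passed, with Epas1, which encodes HIF-2α, at 28.3 ± 12.4 and 19.3 ± 7.82 CPM. Among hypoxia response genes outside glycolysis 0 of 19 passed, with Lox, a collagen cross-linking oxidase, at 226 ± 52.7 and 288 ± 35.4 CPM. In these 6 lists together 4 of 72 genes had an unadjusted edgeR p under 0.05, where 10.8% of all genes did.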

How the data were processed

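Libraries were made from rRNA-depleted, oligo(dT)-enriched tumour RNA, per the labels' protocols. The submitters' processing notes name STAR with the mm39 build, DESeq2 1.36.0 and Trim Galore 0.6.7. How reads were counted, with which annotation and strand setting, is not given in the sources used here, and overlapping genes may share reads. The authors deposited raw counts per gene (whole numbers, 18603 genes). Their second deposited table is a normalized signal, in which each tumour's counts are scaled by a single factor. Tumours were grouped by title. No tumour was a copy of another of its group, since chi-square divided by its degrees of freedom was 7.66 to 134 for the pairs.

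Genes were filtered with filterByExpr (minimum count 10) and scaled by TMM. SLR14 was tested against PBS over all 10 tumours with edgeR 4.0.16's quasi-likelihood test, with Benjamini-Hochberg adjustment at 0.05 over 15883 genes. The test was also run on simulated counts with large changes and the same dispersion for every gene. Those counts held no shifts of many genes in single tumours and no small changes, so that run does not cover them. Standard errors are the absolute log2 fold change divided by the square root of F. Total counts ran from 17931895 to 39842608 per tumour. Transcript lengths are those of the longest APPRIS principal transcript in GENCODE M21, which is not the authors' build. Alternatives were DESeq2 1.42.0, limma 3.58.1 (voom, and log2 of the deposited normalized signal plus 1 or 0.5), other scaling factors and low-count filters, a replicate block and leaving out tumours. Full values are given for members that pass and, per role, for the member with the smallest p and the one with the highest CPM. In other lists, passing genes or else the one with the smallest p are named. Hk2 and the hypoxia examples were added after their values were seen. The members and lists were chosen with earlier results of these data known.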

Additional observations from a re-analysis of the deposited data

Results flagged for a closer look

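In 112 groups of 5 values, 11 held 1 tumour far from the other 4, by Dixon's 95% criterion. Chance flags about 1 group in 20, and genes of 1 tumour are not independent. Tumour SLR14 2 stood above the other SLR14 tumours for Slc2a1 (804 CPM), Gapdh (3304 CPM), Slc16a1 (462 CPM), Adm (72.9 CPM), Bnip3 (609 CPM) and Ero1a (2509.7 CPM). Tumour SLR14 5 stood apart for Pfkfb4 (18.4 CPM) and for the log2 ratio of Slc16a3 to Slc16a1 (-4.49). Tumour PBS 3 was far below the other PBS tumours in the same ratio (-5.27). Tumour PBS 4 was high for Slc2a6 (9.16 CPM) and tumour PBS 5 for Ugp2 (162 CPM).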

How the results depend on the processing

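The members called numbered 0 except for 1, Hk3, in DESeq2 (log2 fold change 0.71) and without SLR14 5, so the leave-one-out range was 0 to 1. All genes called numbered 153, with 407 in DESeq2, 78 with the replicate block and 69 to 194 with 1 tumour left out. Of the other glucose metabolism genes 1 was called, with 0 under upper-quartile factors, 0 with the replicate block and 0 to 1 with 1 tumour left out. No ratio passed under any alternative run.

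The labels do not say whether replicate numbers pair the tumours, and the correlations between tumours cannot settle it. Same-numbered tumours had correlations of deviations of -0.203 to 0.109, and tumour 2 alone of the PBS tumours correlated best with its own number. With the block, Slc2a6 had an adjusted p of 0.151 and Bnip3 a log2 fold change of 0.02.

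Differences near 0 changed sign. Without PBS 5 and SLR14 2, an alternative chosen after seeing the data, log2 fold changes were -0.24 for Slc2a1, -0.01 for Slc2a3, -0.23 for Hk2, -0.18 for Pfkp, -0.01 for the second Aldoa record, -0.11 for Tpi1, -0.17 for Slc16a1, -0.05 for Pdk1, -0.19 for Pdk4, -0.11 for Pfkfb3, -0.21 for Adm, -0.18 for Ero1a, -0.17 for Ndrg1 and -0.10 for Hif1a, and ratio differences 0.12 for Slc2a3 to Slc2a1 and -0.27 for Pfkfb3 to Pfkfb4. With upper-quartile factors they were -0.0034 for Tpi1, -0.01 for Slc16a1, -0.0028 for Pdk4, -0.01 for Pfkfb1, -0.003 for Pfkfb2 and -0.02 for Hif1a. Limma voom gave 0.0049 for Eno2, -0.02 for Pfkfb1 and 0.05 for Bnip3, and limma on normalized values 0.01 for Eno2 and 0.04 for Bnip3 with a pseudocount of 1 or 0.5. The causes were not tested.

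With 1 tumour left out, the log2 fold change ranged from -0.15 to 0.47 for Slc2a1, -0.08 to 0.39 for Slc2a3, -0.10 to 0.37 for Hk2, -0.07 to 0.16 for Pfkp, -0.0049 to 0.28 for the second Aldoa record, -0.05 to 0.22 for Aldoc, -0.12 to 0.14 for Tpi1, -0.09 to 0.15 for Pgk1, -0.34 to 0.17 for Eno2, -0.07 to 0.17 for Ldha, -0.11 to 0.14 for Slc16a1, -0.10 to 0.17 for Pdk1, -0.11 to 0.19 for Pdk4, -0.11 to 0.20 for Pfkfb1, -0.02 to 0.10 for Pfkfb2, -0.02 to 0.24 for Pfkfb3 and -0.01 to 0.18 for Pfkfb4. The ranges were -0.10 to 0.65 for Adm, -0.35 to 0.10 for Bnip3, -0.11 to 0.32 for Ero1a, -0.11 to 0.27 for Ndrg1 and -0.05 to 0.07 for Hif1a. Ratio differences ranged from -0.36 to 0.12 for Slc2a3 to Slc2a1, -0.29 to 0.26 for Pdk1 to Pdk4 and -0.14 to 0.20 for Pfkfb3 to Pfkfb4. The widest interval was that of Ldhb, at 0.774 to 3.87 CPM, and the next that of Slc2a1, at 141 to 804 CPM. The part of depth in these widths was not tested.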
